A study of Mus musculus with 6 samples.

Results

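The keratin genes of the mouse were examined in accessible chromatin maps of cultured dermal fibroblasts, a cell type that is not of the epithelial lineage. Members were the protein-coding RefSeq genes whose symbol is Krt followed by a number, without the keratin-associated proteins (Krtap). This gave 53 of 21887 protein-coding genes. Of these, 27 lie in the type I cluster on chromosome 11 and 26 in the type II cluster on chromosome 15. Accessibility was measured by ATAC-seq, in which Tn5 transposase cuts and tags open DNA, and is given as 2 peak lists, 1 for Lap2alpha KO cells (3 libraries) and 1 for WT cells (3 libraries). Lap2alpha is a nucleoplasmic splice form of the Tmpo gene that binds A-type lamins. Both genotypes were grown in serum-supplemented DMEM with penicillin and streptomycin. The labels call the cells a cell line. For the strain and age of the mice, the way the gene was disrupted, and whether a genotype is 1 clone or several cultures, nothing is given in the sources used here.

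Keratins are the intermediate filament proteins of epithelial cells. An acidic type I and a basic type II chain pair to form each filament, and each epithelium or hair layer uses its own pairs. In skin, KRT5 and KRT14 mark the basal epidermal layer, KRT1 and KRT10 the layers above it, and many further keratins are made only in the hair follicle. Fibroblasts build their filaments mainly from vimentin. Krt18 is a type I keratin that lies beside its partner Krt8 at the edge of the type II cluster, so it is counted on chromosome 15 below.

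Each list combines the 3 libraries of a genotype, so there were no replicates, no test between genotypes was possible, and the depth is unknown. A peak of 1 list only may have missed the calling threshold in the other by little. The 98072 KO and 106132 WT peaks are ranked by signal within their own list, where percentile 100 is the strongest, and ranks are given side by side as a description. Tmpo had a gene-end peak at percentile 98.77 in KO and 98.98 in WT cells. Since Lap2alpha is 1 splice form, this does not check the knockout. The labelled cell type was checked on fixed marker lists, with a gene-end peak meaning a peak that touches the 1 kb on each side of a gene's first or last base. Over all protein-coding genes, 57.4% had one in KO and 58.5% in WT. Among 15 dermal fibroblast genes, 14 had one in both lists, among them Vim at percentile 99.9 in KO and 99.3 in WT, and only Lum had none. The median percentile of these peaks was 96.4 in KO and 94.96 in WT. The lowest were Prrx1 in KO, at 1.38 (84.3 in WT), and Dcn in WT, at 71.1 (51.1 in KO). Of 16 keratinocyte and epithelial genes, 4 had one in both, Itgb4 in KO only (percentile 2.78) and Ivl in WT only (percentile 28.2). The other 10 had one in neither, among them Trp63, Cdh1, Epcam, Grhl2 and Esrp1. The 4 were Esrp2 (percentile 88.2 in KO, 95.2 in WT), Sfn (79.96 in KO, 89.8 in WT), Grhl1 (74.8 in KO, 76.4 in WT) and Cldn1 (65.6 in KO, 73.6 in WT). Peaks within 20 kb were present also without a gene-end peak, 18 in KO and 24 in WT at Cdh1 and 11 in KO and 14 in WT at Trp63.

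Start sequences are shown first because the annotated start sites that could be read were almost empty of peaks. RefSeq start windows (250 bases before to 50 after an annotated start, GRCm38.p6) were given for 36 of the 53 members. The other 17 could not be read this way, and 8 of them had a gene-end peak in at least 1 list, namely Krt80, Krt88, Krt81, Krt86, Krt19, Krt16, Krt15 and Krt222. Only Krt13, a keratin of stratified mucosal epithelia, had a peak in such a window, in both lists. This is 1 of 36 members in each list, against 52.9% (KO) and 53.9% (WT) of 17492 protein-coding genes with a start window. The sequences below, from RefSeq (GRCm38.p6), run 5′ to 3′ from 220 bases before to 30 bases after the start, and capitals mark TATAAA (the TATA box) and TGANTCA (the AP-1 site), each on either strand. The first is the Krt13 start that held the peak, at 100120577 inside the gene span. The second is its other annotated start, at 100121566 on the start-side edge of the span, and its window held no peak in either list. Krt10 and Krt28 show a TATA box at its usual place, Krt8 an overlapping pair of matches on the 2 strands close to the start, and Krt5, Krt14 and Krt18 none of these letters. For Krt10 and Krt14, too, the annotated start shown lies inside the gene span, at 99389364 and 100206030. The start-side edges of these spans are at 99397449 and 100207510, and the sequence there is not shown.
Krt13, chr11:100120548-100120797, minus strand: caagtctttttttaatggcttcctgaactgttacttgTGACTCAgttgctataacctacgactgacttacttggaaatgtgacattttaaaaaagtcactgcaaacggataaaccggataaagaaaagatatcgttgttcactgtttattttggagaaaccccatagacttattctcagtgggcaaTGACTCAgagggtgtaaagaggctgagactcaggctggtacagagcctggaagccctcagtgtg
Krt13, chr11:100121537-100121786, minus strand: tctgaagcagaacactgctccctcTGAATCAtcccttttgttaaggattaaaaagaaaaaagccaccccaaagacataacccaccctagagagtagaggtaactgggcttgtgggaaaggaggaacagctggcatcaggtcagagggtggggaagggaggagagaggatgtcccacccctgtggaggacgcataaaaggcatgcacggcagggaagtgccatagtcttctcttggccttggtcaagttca
Krt10, chr11:99389335-99389584, minus strand: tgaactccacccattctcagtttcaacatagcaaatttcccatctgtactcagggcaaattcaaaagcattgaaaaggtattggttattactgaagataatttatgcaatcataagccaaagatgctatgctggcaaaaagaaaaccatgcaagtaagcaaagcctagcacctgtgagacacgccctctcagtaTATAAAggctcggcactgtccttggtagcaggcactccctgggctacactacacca
Krt28, chr11:99374874-99375123, minus strand: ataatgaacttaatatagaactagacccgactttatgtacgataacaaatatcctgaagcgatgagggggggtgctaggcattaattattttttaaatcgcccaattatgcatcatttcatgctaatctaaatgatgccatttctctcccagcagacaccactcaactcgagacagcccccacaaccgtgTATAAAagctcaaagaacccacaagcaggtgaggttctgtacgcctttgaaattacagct
Krt8, chr15:102004313-102004562, minus strand: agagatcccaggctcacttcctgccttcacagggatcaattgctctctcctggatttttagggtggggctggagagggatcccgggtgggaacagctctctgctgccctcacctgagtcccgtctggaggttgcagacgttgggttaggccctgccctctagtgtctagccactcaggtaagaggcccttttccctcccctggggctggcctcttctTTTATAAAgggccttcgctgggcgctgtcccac
Krt5, chr15:101712876-101713125, minus strand: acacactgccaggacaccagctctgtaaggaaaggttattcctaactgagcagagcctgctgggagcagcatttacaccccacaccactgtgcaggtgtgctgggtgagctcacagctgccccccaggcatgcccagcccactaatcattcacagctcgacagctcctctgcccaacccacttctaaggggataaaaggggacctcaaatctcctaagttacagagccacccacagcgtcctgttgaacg
Krt14, chr11:100206001-100206250, minus strand: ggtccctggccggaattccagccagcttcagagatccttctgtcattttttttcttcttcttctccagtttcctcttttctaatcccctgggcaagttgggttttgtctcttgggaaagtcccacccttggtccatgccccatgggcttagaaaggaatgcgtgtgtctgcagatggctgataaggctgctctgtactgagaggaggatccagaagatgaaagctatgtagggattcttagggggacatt
Krt18, chr15:102027996-102028245, plus strand: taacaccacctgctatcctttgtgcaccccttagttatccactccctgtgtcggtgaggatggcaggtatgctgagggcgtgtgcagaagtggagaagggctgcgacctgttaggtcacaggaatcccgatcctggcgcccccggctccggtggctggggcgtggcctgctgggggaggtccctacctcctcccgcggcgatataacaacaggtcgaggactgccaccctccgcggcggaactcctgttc

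The Krt13 peak had its summit 7 bp from that annotated start, on the same base in both lists. It ran from 100120074 to 100121201 at percentile 89.8 in KO and from 100119968 to 100121130 at percentile 86.4 in WT. Within 1 kb of an annotated start, Krt13 and Krt8 had a peak in both lists and Krt25 in WT only, which is 2 of 36 members in KO and 3 of 36 in WT, against 55.8% and 56.8% of all genes with a start window. At Krt14 the nearest summit lay 2375 bp from the start in KO and 2352 bp in WT, and at Krt10 3382 bp and 3406 bp. At Krt5 it lay 3109 bp away in KO and 3148 bp in WT. Summits thus lay inside Krt14 and Krt10 and beside Krt5, the basal and suprabasal keratins, but outside their start windows.

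The letters of 4 motifs were searched on both strands of the start windows. TATAAA was found on either strand in 19 of 37 keratin windows (51.4%), since Krt13 has 2, and in 12.6% of all 21263 protein-coding windows. Placed 40 to 20 bases before the start on the gene strand, it was in 13 keratin windows (35.1%) and in 2.53% of all. The GC box GGGCGG was in 2 keratin windows (5.41%), those of Krt7 and Krt75, against 46.2% of all. The AP-2 site GCCNNNGGC was in 18.9% against 19.9%. The AP-1 site TGANTCA was in 2 keratin windows, both of Krt13, against 6.99% of all. Matches of different motifs were counted separately where they overlap, and letters alone do not show binding.

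**Figure D1:**
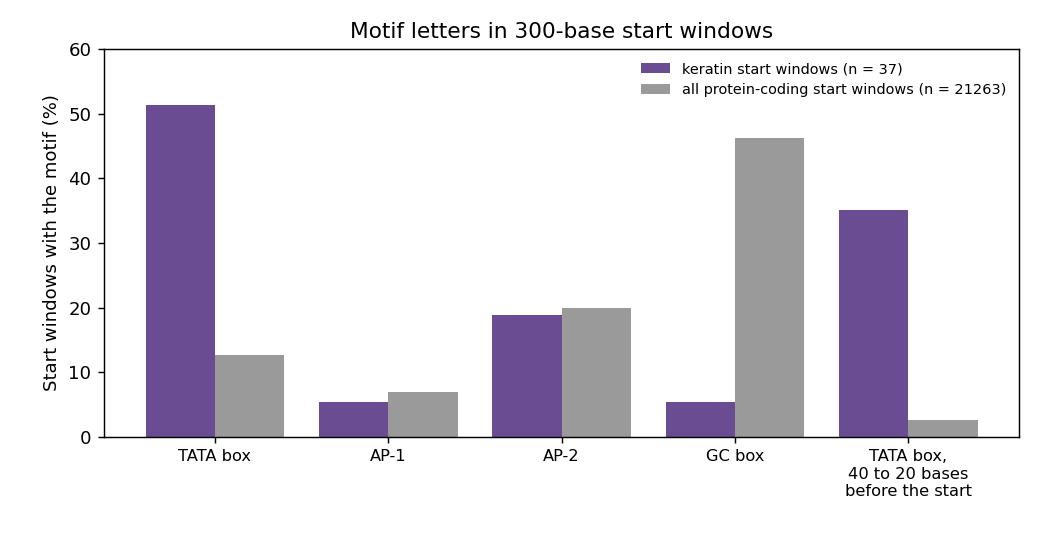
Share of start windows holding each motif, in percent, for 37 keratin windows (purple) and 21263 windows of all protein-coding genes (grey). TATAAA stands at 51.4% of keratin windows against 12.6% of all, and GGGCGG at 5.41% against 46.2%.

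Over all genes the same letters went with different shares of peaks. Windows with TATAAA 40 to 20 bases before the start held a KO peak in 21.9% and a WT peak in 23.4% of 538 cases, against 52.2% and 53.3% of the windows without it. Of the 13 such keratin windows, 0 held a KO peak, against 1 of the other 24. Windows with GGGCGG held a peak in 74.6% (KO) and 75.5% (WT) of cases, against 31.6% and 32.8% without it. These shares are descriptions across genes of 1 list each, and the part that start sequence has in the keratin result was not tested.

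Away from the start sites the clusters were not empty. Within 20 kb of a member or inside it, by summit, there were 90 KO and 97 WT peaks. Of the 53 members, 42 (79.2%) had such a peak in KO and 44 (83.0%) in WT, close to the 82.3% and 83.9% of all genes. The median member had 3 peaks in KO and 2 in WT, against 4 and 5 over all protein-coding genes. Summits inside the gene were found at 10 members in each list, against 59.1% (KO) and 61.3% (WT) of all genes. Keratins are short genes, and the part of gene length in this count was not tested. Peaks near keratins were of ordinary strength. Their median percentile was 60.1 in KO and 52.5 in WT, and 9 KO and 10 WT peaks stood above percentile 90, where 10.0% of each list does by definition.

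At their ends, most keratins had no peak in either genotype. A gene-end peak was present at 15 members in KO (28.3%) and 16 in WT (30.2%), against 57.4% and 58.5% of all protein-coding genes. It was in both lists at 14 members, in KO only at Krt36, in WT only at Krt222 and Krt25, and in neither at 36. Krt78 and Krt8, whose spans nearly touch, share 1 of these peaks. Over all genes, 1.31% had one in KO only and 2.47% in WT only. In the type I cluster 9 of 27 members had one in KO and 10 in WT, and in the type II cluster 6 of 26 in each list. Of the members with a known strand and a gene-end peak, Krt28, Krt10, Krt31 and Krt14 had it at the end opposite to the start only, Krt36, Krt25 and Krt78 at the edge of the gene span on the start side only, and Krt13 and Krt8 at both ends. That edge need not be an annotated start, since the KO summit lay 41361 bp from the annotated start at Krt78 and 3866 bp at Krt36. Among the keratin-associated proteins, the hair matrix proteins encoded within and outside the type I cluster, 5 of 56 had one in KO and 7 in WT.

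**Figure D2:**
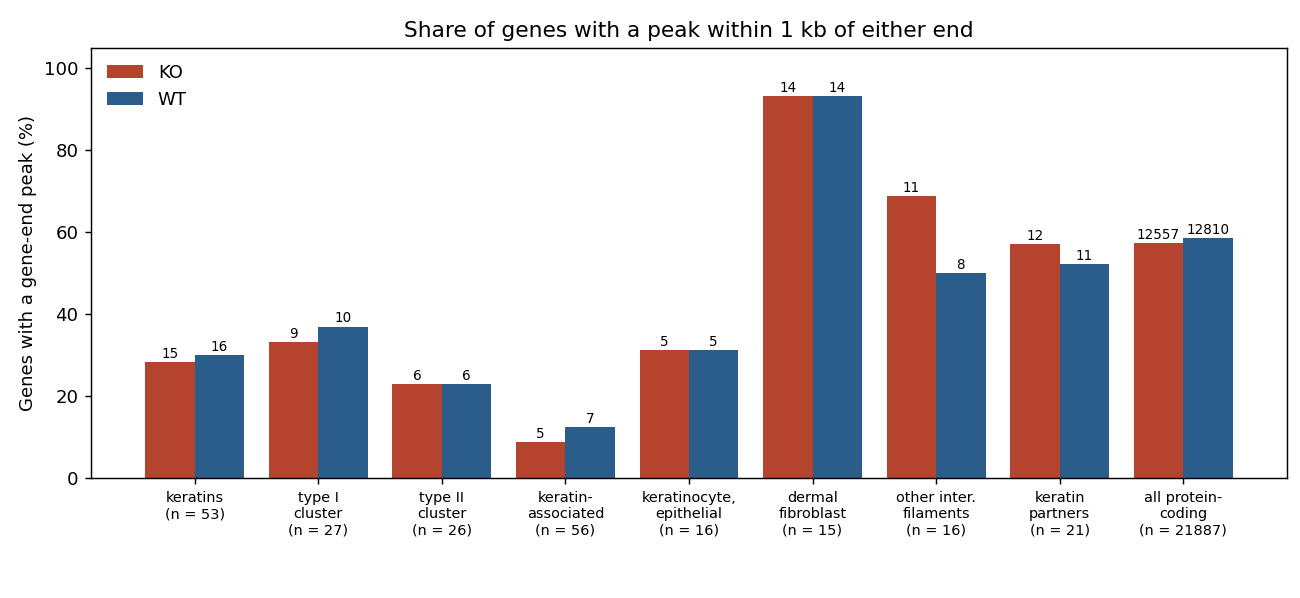
Percent of genes with a peak in the 1 kb on each side of a gene end, KO bars left of WT bars, with the number of such genes above each bar. Keratins stand at 28.3% in KO and 30.2% in WT, fibroblast genes at 14 of 15 in both, and all protein-coding genes at 57.4% and 58.5%.

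The 2 clusters were laid out differently. From first to last member the type I cluster spans 1037 kb and held 57.8 peaks per Mb in KO and 55.9 in WT. The type II cluster spans 684 kb and held 58.5 peaks per Mb in KO and 61.4 in WT. Over the whole of chromosome 11 the densities were 56.5 in KO and 59.5 in WT, and over chromosome 15 49.99 in KO and 50.24 in WT. The type II cluster was therefore denser in peaks than its chromosome, while the type I cluster stood close to its own, slightly above in KO and below in WT. The type I cluster holds 65 protein-coding genes, against 1609 in the 122 Mb of chromosome 11. The type II cluster holds 27, against 776 in the 104 Mb of chromosome 15. The part of gene density in these values was not tested. Over all chromosomes the densities were 36.0 in KO and 39.0 in WT. Cut to lists of equal length, a step chosen after seeing the data, the type I cluster held 45.3 peaks per Mb in KO and 39.5 in WT, and the type II cluster 49.7 in KO and 51.2 in WT. The chromosome and genome densities above are those of the uncut lists, so the cut values cannot be set against them. In the type I cluster a stretch of 468 kb holds 23 Krtap genes and no keratin, with 22 KO and 21 WT peaks. It parts 12 keratins from Krt222 to Krt40 and 15 keratins from Krt33a to Krt42.

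**Figure D3:**
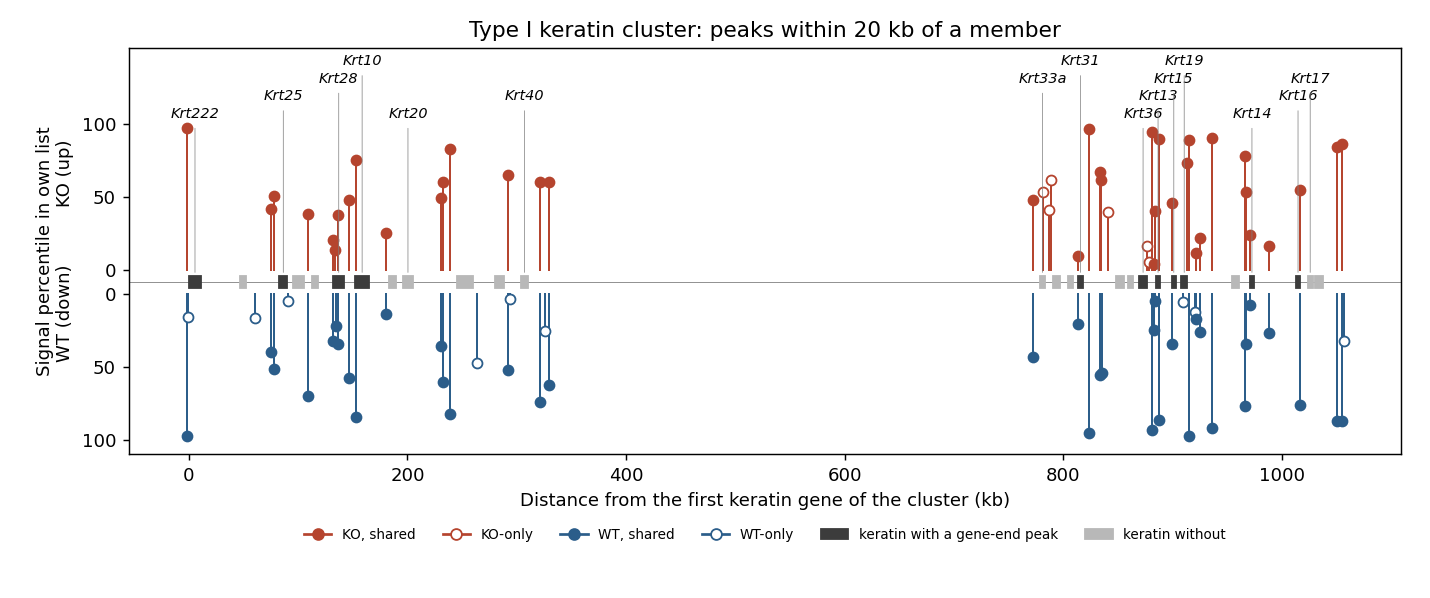
Peaks within 20 kb of a type I cluster keratin along the distance from Krt222 (kb), KO upward and WT downward, with height giving the signal percentile in the peak's own list, filled points shared and open points of 1 list only. Open KO points lie between Krt33a and Krt13, and 6 of the 9 open WT points lie in or within 20 kb of the genes from Krt222 to Krt40. In the Krtap stretch only its outer 20 kb on each side are drawn.

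In the type II cluster, peaks were crowded at the 2 edges and nearly absent in between. No peak of either list lay in the 184 kb from 101520283 to 101704224, which contain Krt84, Krt82, Krt90, Krt75, Krt6b and Krt6a. None lay in the 169 kb from 101773172 to 101941735 either, which contain Krt72, Krt73, Krt2, Krt1, Krt77, Krt76, Krt4 and Krt79. In KO the first stretch ran on to 101715562 and took in Krt5, because the small peak at 101704225 to 101704341 (percentile 9.10) was called in WT only. Between these stretches Krt71 lay in another one, of 55.9 kb. The 9 members with no peak within 20 kb in either list were Krt82, Krt90, Krt75, Krt6b, Krt73, Krt2, Krt1, Krt77 and Krt76, and Krt24 and Krt6a had none in KO, against 1 each in WT.

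**Figure D4:**
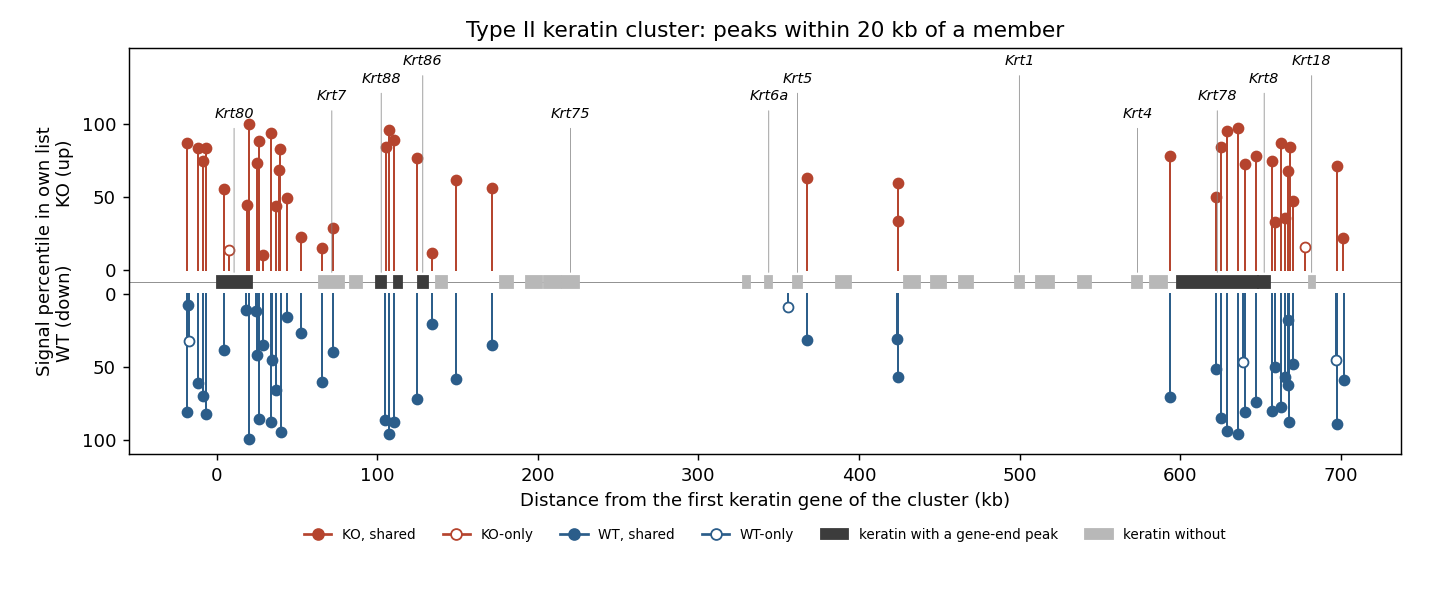
Peaks within 20 kb of a type II cluster keratin along the distance from Krt80 (kb), drawn as for the type I cluster. Peaks gather at the Krt80 to Krt86 side and at Krt78, Krt8 and Krt18, and stretches of 184 kb and 169 kb between them hold no peak in either list.

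**Figure D5:**
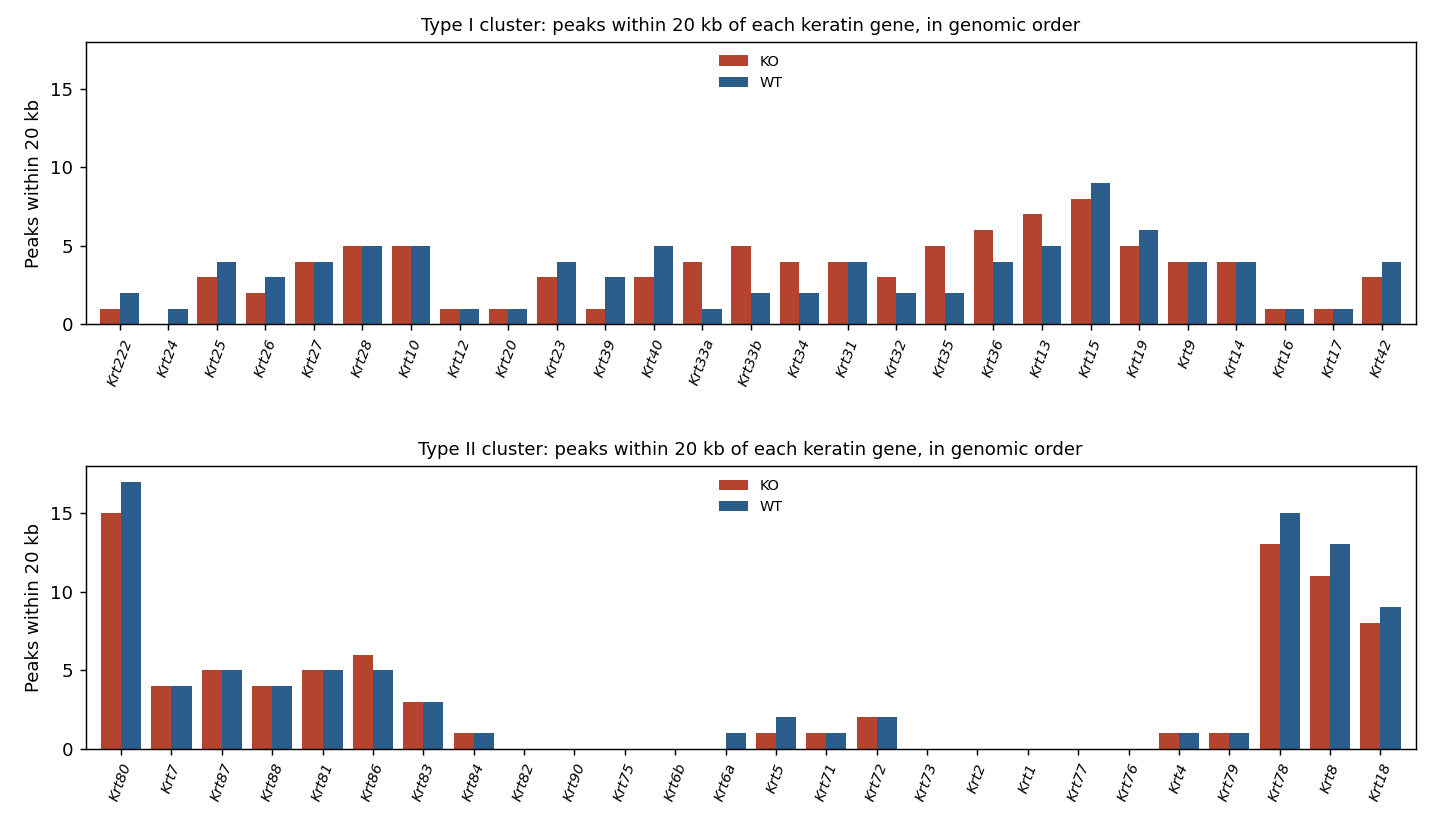
Number of KO (left bar) and WT (right bar) peaks within 20 kb of each keratin, in genomic order, with neighbouring genes sharing peaks. Krt80 has the highest bars with 15 KO and 17 WT peaks, and 9 type II keratins have no bar.

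Simple epithelial keratins (Krt7, Krt8, Krt18, Krt19, Krt20 and Krt23) are those of one-layered epithelia. All 6 had a peak within 20 kb in both lists, and 2 of 6, Krt8 and Krt19, had one at a gene end. Over all genes these shares were 82.3% (KO) and 83.9% (WT) within 20 kb, and 57.4% and 58.5% at a gene end, and with so few genes in a role group its counts are a description only. Krt8 had 11 KO and 13 WT peaks within 20 kb. The peak nearest its start ran from 102004945 to 102005723 in KO (percentile 74.4) and from 102004686 to 102005737 in WT (80.1), with summits 1129 and 1109 bp before the start. Krt18, its partner chain, had 8 KO and 9 WT peaks and none at its ends. The peak closest to Krt18, at 102025776 to 102026094, was KO-only and weak (percentile 15.6).

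Krt19, which pairs with type II chains in simple epithelia, had a broad WT peak of 2501 bp from 100145876 to 100148376 at percentile 97.2. In KO the same stretch was covered by 2 peaks of 1085 bp each, at percentiles 73.2 and 88.8. A WT-only peak inside Krt19 was weak (percentile 6.05). Krt7, a ductal and glandular keratin, had 2 peaks inside the gene in each list. The one nearer its start was at percentile 14.8 in KO and 60.7 in WT, and no peak touched its end windows. Krt20 had 1 peak within 20 kb in each list, 14883 bp from the gene in KO and 14923 bp in WT. At Krt23 the peak of highest rank, 5812 bp from the gene in KO and 5806 bp in WT, stood at percentiles 83.2 and 82.2.

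Basal keratins had low-ranking peaks inside the gene or none there, and higher ones nearby. Krt14 had a peak inside the gene near its far end, at percentile 24.2 in KO and 8.11 in WT. A stronger one lay 4380 bp from it in KO (percentile 78.3) and 4266 bp in WT (77.1). Krt15, expressed in basal cells and the hair follicle bulge, had a peak inside at percentile 46.1 in KO and 34.1 in WT. Krt5, the type II partner of Krt14, had no gene-end peak, and its closest shared peak stood at percentile 62.9 in KO and 31.5 in WT. Thus 2 of the 3 basal keratins had a gene-end peak, in KO and WT alike.

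Among 12 suprabasal and mucosal keratins, Krt10, Krt13, Krt78 and Krt80 had a gene-end peak in KO and WT, and the other 8 in neither. Krt1 and Krt10 form the pair of the differentiating epidermis and differed in these maps. Krt10 had a peak inside the gene from 99385869 to 99386639 in KO (percentile 75.01) and from 99385744 to 99386782 in WT (84.4). Krt1 had none within 20 kb in either list, with the nearest summit 72609 bp away in KO and 72620 bp in WT. Krt13 had 7 KO and 5 WT peaks within 20 kb. Beyond its far end, with the summit 3597 bp away in both, lay a peak from 100112862 to 100114396 in KO (percentile 94.4) and from 100112967 to 100114449 in WT (93.2). A peak 17645 bp from Krt9, a keratin of palm and sole epidermis, ran from 100168031 to 100169865 in KO (90.4) and from 100167903 to 100169900 in WT (92.2).

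Krt80, a type II keratin found in several epithelia, carried the strongest peak of all members. It ran from 101368113 to 101371669 in KO (3557 bp, percentile 99.8) and from 101368099 to 101371478 in WT (3380 bp, percentile 99.7), across one end of the gene, with the summit at 101368737 in both. Krt80 also had the most peaks within 20 kb, 15 in KO and 17 in WT. Of the next strongest at Krt80, one ran from 101380955 to 101383215 in KO (94.1), where WT had 2 peaks, and one from 101386623 to 101388830 in WT (94.4), where KO had 2. Of the 6 places near keratins where 1 peak of a list spanned 2 of the other, 4 lay at Krt80, 1 at Krt8 and 1 at Krt19. In 4 of them the single peak was the KO one and in 2 the WT one. This is 4.44% of KO and 2.06% of WT peaks near keratins, against 2.87% and 3.02% of all peaks.

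Krt78, an epidermal keratin annotated over a long span that reaches to Krt8, had 6 KO and 7 WT summits inside that span. The strongest ran from 101983423 to 101985034 in KO (percentile 97.3) and from 101983300 to 101985036 in WT (96.2), with summits 1 bp apart. The next ran from 101975947 to 101978207 in KO (95.4) and from 101976052 to 101978102 in WT (94.2), with summits 212 bp apart. A peak inside this span at 101987310 to 101987551 was WT-only (percentile 47.1). The annotated start of Krt78 lies 12205 bp from the nearest KO summit and 12217 bp from the nearest WT summit, outside the crowded part.

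Wound-induced keratins had few peaks. Krt16, induced in hyperproliferative epidermis, had a gene-end peak at percentile 55.0 in KO and 76.3 in WT. Krt17, made in appendages and after injury, had no peak at its ends, and the nearest summit was that same peak, 6907 bp away in KO and 6971 bp in WT. Krt6b had no peak within 20 kb in either list. Krt6a had 0 peaks in KO and 1 in WT.

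Of 8 inner root sheath and companion layer keratins, the keratins of the sheath that guides the growing hair, Krt28 had a gene-end peak in KO and WT and Krt25 in WT only. The Krt28 peak stood at percentile 20.4 in KO and 32.5 in WT, and 2 further weak peaks lay inside the gene in each list. The Krt25 peak, at 99323821 to 99324012, stood at percentile 5.23. Krt73 and Krt75, type II chains of this group, had no peak within 20 kb in either list.

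Hair shaft keratins, the cysteine-rich keratins of the hair fibre, were 15 genes. Krt85, also listed for this group, was not among the 53 members and was not read. Krt31, Krt81 and Krt86 had a gene-end peak in KO and WT, Krt36 in KO only, and 11 in neither. Krt81 stood at percentile 89.3 in KO and 87.9 in WT, and Krt86 at 76.9 and 72.2, both with summits outside the gene. Krt31 had a weak end peak (9.88 in KO, 20.6 in WT). A strong one 5954 bp away ran from 100055221 to 100056995 in KO (percentile 96.9) and from 100055308 to 100056995 in WT (95.2), with the summit on the same base. Next to Krt81, Krt88, for which no role is given here, had an end peak from 101454666 to 101456189 in KO (95.5) and from 101454572 to 101456164 in WT (95.7). Krt222, at the outer edge of the type I cluster, had an end peak in WT only (percentile 15.8). The strong shared peak 2029 bp from Krt222 in KO and 2028 bp in WT lies inside Smarce1, a chromatin remodelling gene, from 99229585 to 99231659 in KO (percentile 97.5) and from 99229173 to 99231699 in WT (97.4).

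Peaks of 1 genotype only were few. Of the 90 KO peaks 8 (8.89%) had no WT partner, against 13.4% of all KO peaks, and of the 97 WT peaks 13 (13.4%) had no KO partner, against 20.4% of all WT peaks. Their median percentile was 28.3 for KO-only and 17.0 for WT-only peaks, against 61.7 and 58.7 for shared ones. Over the genome, KO-only and WT-only peaks ranked low too, with medians of 16.5 and 17.8, against 55.9 and 59.3 for shared peaks. None of the 13 WT-only and 2 of the 8 KO-only peaks stood in the upper 50% of their list. A summit −log10 p of at least 10 in both lists was chosen after seeing the data. With it there were 10 KO-only of 55 KO peaks and 7 WT-only of 50 WT peaks, which turns the order of the 2 counts. With a reciprocal overlap of 50% they were 20 of 90 and 27 of 97. Over the genome, 70501 of 98072 KO and 70501 of 106132 WT peaks kept a partner under this rule, so the counts rise for all peaks. In 5 kb windows they were 7 of 53 KO and 7 of 53 WT peaks, to be set beside the same 13.4% and 20.4% of all peaks. With both lists cut to the upper 50% by signal they were 7 of 54 KO and 7 of 52 WT peaks. After a cut by signal or −log10 p, a peak whose partner fell below the cut also counts as of 1 list only. The counts after such a cut, and their order, therefore depend on the threshold. The all-peak shares after these cuts are not given here, so the cut counts are not read as a keratin result.

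The 2 groups of type I keratins differed in where these peaks lay. From Krt222 to Krt40, 0 of 16 KO peaks were KO-only and 6 of 22 WT peaks were WT-only. From Krt33a to Krt42, 6 of 28 KO peaks were KO-only and 3 of 24 WT peaks were WT-only. In the type II cluster, the counts were 2 of 46 and 4 of 51. Over the whole of chromosome 11, 11.8% of KO and 16.0% of WT peaks were of 1 list only, and over chromosome 15, 17.4% and 15.6%. These grouped counts were chosen after the values were seen and were not tested.

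The 6 type I KO-only peaks all lay in a single stretch of neighbouring hair keratins, from Krt33a to just past Krt36. They do not mark hair keratins as a group. Krt31 within this stretch, Krt39 and Krt40 outside it, and the hair keratins of the type II cluster had no KO-only peak within 20 kb. A peak inside Krt33a ran from 100013769 to 100014252 at percentile 53.2. Between Krt33a and Krt33b lay peaks from 100019565 to 100020055 (percentile 41.2) and from 100021079 to 100021815 (61.6), the strongest KO-only peak near any keratin. Both genes encode type I hair keratins of the fibre cortex. The nearest WT summit was 6187 bp from Krt33a and 16636 bp from Krt33b. A KO-only peak 6828 bp from Krt32, from 100073813 to 100074267, stood at percentile 40.1. At Krt36 the KO-only peaks stood at percentile 16.4, from 100109319 to 100109719 at the gene's end, and 5.29, from 100111329 to 100111489. The other KO-only peaks lay inside Krt80 (101356021 to 101356266, percentile 13.6) and near Krt18.

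The strongest WT-only peaks near keratins lay 3406 bp from Krt23 (99496439 to 99496713, percentile 47.3), inside Krt78 (47.1) and 13107 bp from Krt18 (102045001 to 102045303, percentile 45.5). Next came peaks near Krt42 (100288965 to 100289237, percentile 32.4) and near Krt80 (101331183 to 101331524, 32.2), and one nearest to Krtap3-2 and 15555 bp from Krt40 (99558548 to 99558883, 25.4). Weaker ones lay near Krt24 (99292925 to 99293111, 17.0), Krt222 (99231812 to 99232051, 15.8) and Krt19 (100153075 to 100153194, 12.5), and near Krt5 as given above. The other 3, at or near Krt19, Krt25 and Krt39, stood at 3.98 to 6.05. All of these ranked below the median of the WT list. By member, 8 keratins had more KO than WT peaks within 20 kb, 16 had more WT, and 29 had equal numbers, with peaks counted again for each gene they lie near. The WT list is the longer one, and over all protein-coding genes the median was 4 peaks in KO and 5 in WT. The same count by direction over all genes is not given here, so these numbers are not read as a keratin result.

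Shared peaks sat at nearly the same place in both genotypes. Among 74 one-to-one pairs near keratins the median distance between summits was 13.5 bp, against 11 bp for 75840 pairs over the genome. In 56 pairs (75.7%, against 79.6% of all) the summits lay within 50 bp, and in 8 pairs (10.8%, against 8.68% of all) they fell on the same base.

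Genes that work with keratins, and the other intermediate filament genes, were read the same way. Of 21 desmosome, hemidesmosome and linker genes, 11 had a gene-end peak in KO and WT, Itgb4 in KO only (percentile 2.78) and 9 in neither. With 57.1% in KO and 52.4% in WT, they were near the 57.4% and 58.5% of all genes. Evpl, which encodes the cornified envelope protein envoplakin, stood at percentile 99.7 in KO and 99.6 in WT, and Jup, the plakoglobin gene on the same chromosome as the type I cluster, at 89.5 and 90.5. Dsp, the desmoplakin gene that anchors keratin filaments, had none. Of 16 other intermediate filament genes, 11 had one in KO (68.8%) and 8 in WT, the 8 in both lists including Vim, Nes (97.64 in KO, 99.01 in WT) and Lmna (96.9 in KO, 95.6 in WT). Gfap, Nefm and Prph, filament genes of glia and neurons, had one in KO only, at percentiles 6.36, 30.4 and 51.5, against a background of 1.31% of all genes. The 5 with one in neither list were Des, Bfsp2, Nefl, Nefh and Ina, of which the last 3 are also filament genes of neurons. The KO-only calls are thus not a trait of neuronal filament genes as a set. This count of 3 of 16 rests on single calls without replicates.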

How the data were processed

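ATAC-seq libraries of mouse dermal fibroblasts (3 KO, 3 WT) were analysed as 2 peak lists, 1 per genotype. The submitters' processing notes name GRCm38, Genrich, deepTools 3.5.1 and Bowtie2 2.5.1. Genrich's version and settings, any shifting of reads for Tn5 and the way libraries were joined are not given in the sources used here. Deposited values were a signal per peak, used only as a percentile within its own list, and the −log10 p of the summit, used only as a threshold. Peak positions are printed 1-based. Krt74, annotated as a pseudogene, was left out. Krt85 was not among the members either, for a reason not given here. Gene spans, start windows and sequences came from RefSeq for GRCm38.p6, the same build. No genome sequence was used, so peak sequences are not shown.

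Peaks were taken by summit in a member or within 20 kb, and shared by an overlap of at least 1 bp. With 1 list per genotype no p-value was computed, no library could be left out, and depth is unknown. The planned threshold of a summit −log10 p of 5 left out 2 KO and 4 WT peaks, so 10 was added. Members named were Krt1, Krt5, Krt6a, Krt7, Krt8, Krt10, Krt14, Krt16, Krt17, Krt18 and Krt19, every other member with a gene-end peak or a genotype-only peak inside it, the 5 strongest peaks per cluster and list, and the 10 strongest genotype-only peaks per list. Other members were named to complete a group. The members and lists were chosen with earlier results of these data known. Python 3.11.15, numpy 2.4.6 and pandas 2.3.3 were used. The overlap code was tested on simulated data and gave the counts of bedtools 2.31.1 on both lists.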

Additional observations from a re-analysis of the deposited data

How the results depend on the processing

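With 1 combined list per genotype, no library could be left out. No paired analysis was possible because the replicate numbers belong to libraries that were combined before the lists were made. Of 46 alternative values for the counts of peaks, of gene-end peaks and for the densities, 30 stayed within 1.5 times the value reported and 16 moved beyond it. In 5 kb windows there were 53 KO and 53 WT peaks near keratins, and 7 WT-only peaks. In the upper 50% by signal there were 54 KO and 52 WT peaks, 7 WT-only peaks, and 10 keratins with a gene-end peak in WT. With a summit −log10 p of at least 10, chosen after seeing the data, there were 55 KO and 50 WT peaks, 7 WT-only peaks, and 9 keratins with a gene-end peak in KO and 10 in WT. In both cuts, a peak whose partner fell below the cut also counts as of 1 list only. When sharing required a reciprocal overlap of 50%, 20 of 90 KO and 27 of 97 WT peaks had no partner. Over the genome 70501 of 98072 KO and 70501 of 106132 WT peaks then had one. With start windows in place of gene ends, 1 keratin had a peak in KO and 1 in WT, of the 36 with such a window. The causes were not tested. Cutting both lists to 73554 peaks gave 8 KO-only of 73 KO peaks and 9 WT-only of 73 WT peaks near keratins. For the counts of KO-only and WT-only peaks after a cut by signal, −log10 p or list length, no all-peak share is given here. Each list's depth is unknown, and it limits which weak peaks were called.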
